A study of Mus musculus with 6 samples.

Results

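The genes of the major histocompatibility complex (MHC) were followed in the prostates of 6 male C57BL/6 mice. They were every row of the deposited table whose symbol begins with H2-, together with B2m, Cd74, Tap1, Tap2, Tapbp, Tapbpl, Ciita and Nlrc5, which gave 52 of 34745 genes. By their known roles 37 belonged to class I and 14 to class II, and 1, H2-Ke6, is a hydroxysteroid dehydrogenase gene that carries the name of the region without being an MHC molecule. The 3 mice of the T + E2 group carried a slow-release pellet of testosterone and oestradiol under the skin for 12 weeks. The 3 mice of the CON group had their skin opened and closed without a pellet, so that no group received an empty pellet. The pellet was renewed monthly, and the CON mice were operated on again at the same times. All animals were young adults at the start, none carried a transgene, and each library came from the prostate of a different mouse.

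MHC class I molecules present peptides from the inside of a cell to CD8+ T cells. A heavy chain pairs with beta-2 microglobulin in the endoplasmic reticulum and receives its peptide through the transporter TAP, and nearly every nucleated cell makes them. Class II molecules present peptides from endocytosed material to CD4+ T cells and are made mainly by dendritic cells, macrophages and B cells, which in the prostate lie among and beneath the epithelium. Nlrc5 is the transactivator of class I genes and Ciita that of class II genes.

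MHC genes are controlled through short promoter elements, so promoters are shown for the genes on which the comparison turned. H2-K1 and H2-D1 are the classical heavy chains, H2-Q10 is a secreted non-classical heavy chain best known from liver, B2m is the light chain, and H2-Aa stands for class II. Each stretch holds 250 bases before and 50 bases after the start of the gene in RefSeq on GRCm38.p6, written 5′ to 3′ on the gene's own strand. Capitals mark 4 short motifs on either strand, which may overlap: the enhancer A core GGATTCCC, the interferon regulatory factor (IRF) core TTTCNNTT, the cyclic AMP response element (CRE) half-site TGACG and the Y box GATTGG. The promoters lie at chr17:34000284-34000583 on the minus strand (H2-K1), chr17:35262844-35263143 on the plus strand (H2-D1), chr17:35469839-35470138 on the plus strand (H2-Q10), chr2:122147437-122147736 on the plus strand (B2m) and chr17:34287774-34288073 on the minus strand (H2-Aa).
H2-K1: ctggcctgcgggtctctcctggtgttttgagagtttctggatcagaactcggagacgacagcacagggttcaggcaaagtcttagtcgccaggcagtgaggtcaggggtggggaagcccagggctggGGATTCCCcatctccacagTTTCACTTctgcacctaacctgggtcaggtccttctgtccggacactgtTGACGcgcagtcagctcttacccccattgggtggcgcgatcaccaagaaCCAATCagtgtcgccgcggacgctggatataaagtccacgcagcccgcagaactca
H2-D1: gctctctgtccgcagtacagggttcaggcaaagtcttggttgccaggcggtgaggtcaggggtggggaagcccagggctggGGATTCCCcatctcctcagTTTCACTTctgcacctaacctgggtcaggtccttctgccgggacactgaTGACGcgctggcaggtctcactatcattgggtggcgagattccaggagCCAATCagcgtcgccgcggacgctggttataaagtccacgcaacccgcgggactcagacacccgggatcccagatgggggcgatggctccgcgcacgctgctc
H2-Q10: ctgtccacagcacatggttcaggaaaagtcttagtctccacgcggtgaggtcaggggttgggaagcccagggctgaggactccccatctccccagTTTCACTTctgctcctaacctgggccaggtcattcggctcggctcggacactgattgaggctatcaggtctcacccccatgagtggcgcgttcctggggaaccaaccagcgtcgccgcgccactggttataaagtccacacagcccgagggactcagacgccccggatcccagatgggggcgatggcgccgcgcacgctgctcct
B2m: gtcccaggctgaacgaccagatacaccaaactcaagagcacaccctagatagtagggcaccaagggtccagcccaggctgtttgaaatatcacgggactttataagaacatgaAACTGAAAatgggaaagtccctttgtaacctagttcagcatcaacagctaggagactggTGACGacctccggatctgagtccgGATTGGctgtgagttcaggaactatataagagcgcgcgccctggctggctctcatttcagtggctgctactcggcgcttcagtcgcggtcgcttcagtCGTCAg
H2-Aa: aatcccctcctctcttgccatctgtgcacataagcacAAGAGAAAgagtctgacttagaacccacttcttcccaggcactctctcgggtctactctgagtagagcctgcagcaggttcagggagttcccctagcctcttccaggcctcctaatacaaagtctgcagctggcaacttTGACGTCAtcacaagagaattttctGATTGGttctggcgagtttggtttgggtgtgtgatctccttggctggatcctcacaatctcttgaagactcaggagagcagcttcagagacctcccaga

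The promoters of H2-K1 and H2-D1 were identical at 222 of 253 aligned bases (87.7%), and each held all 4 motifs. The H2-Q10 promoter had 84.5% identity to that of H2-K1 and 87.3% to that of H2-D1, and held only the IRF core in these letters. A promoter was found in RefSeq for 34 of the 52 genes. Among 25 class I promoters the enhancer A core was present in 4, those of H2-K1, H2-D1, H2-Q6 and H2-Q7, the IRF core in 15, the CRE half-site in 13 and the Y box in 18. All 8 class II promoters held the Y box. Of all 27025 promoters of this length, 1.04% held the enhancer A core, 24.2% the IRF core, 21.0% the CRE half-site and 16.6% the Y box. A match of letters is a description and does not show that a factor binds there.

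**Figure D1:**
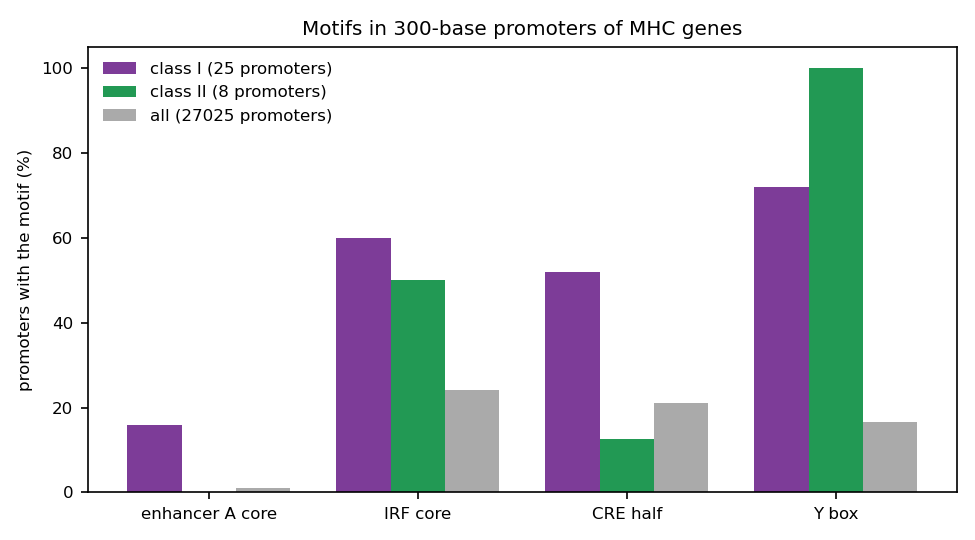
Share of promoters (%, vertical axis) that hold each of 4 motifs, for 25 class I promoters, 8 class II promoters and all 27025 promoters of the same length. The Y box was in 72% of class I and 100% of class II promoters, against 16.6% of all, and the enhancer A core was in 16% of class I promoters and in no class II promoter.

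The libraries held 14816146 to 16555549 counts per mouse, so that 3 counts, taken as the detection limit, corresponded to 0.181 to 0.202 CPM. CPM is the usual measure of counts relative to the library total, here after TMM scaling. A gene is said to have risen or fallen only where the edgeR quasi-likelihood test gave an adjusted p under 0.05 over all 15580 genes tested. DEGs also needed an absolute log2 fold change over 1. Prostate tissue was present in every library, with Pbsn, the androgen-dependent secretory protein probasin, at 12360 to 16650 CPM in the CON group and 1259 to 1754 CPM in the T + E2 group (log2 fold change -3.29, edgeR adjusted p = 2.45e-05). Genes of the seminal vesicle, which lies against the prostate, summed to 9889 CPM in CON replicate 2 and 600.4 CPM in T + E2 replicate 2, against 0.6287 to 3.709 CPM in the other 4 mice. Of the epididymis genes, Adam7 had no count in the CON group and 4.932 to 10.93 CPM in the T + E2 group. Crisp1 went the other way, with 2, 13 and 0 counts in the CON mice against 0, 3 and 0 in the T + E2 mice. Lcn5 had no count in any mouse. The part of such neighbouring tissue in the results below was not tested, but the counts of called genes that changed are also given without both mice of replicate number 2. In whole tissue, fewer cells of a type cannot be told apart from less RNA per cell.

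In class I, the classical heavy chains, B2m and Tap2 rose in the T + E2 group, whereas the heavy chains H2-Q10 and H2-T24 and the transporter subunit Tap1 fell. Of 37 class I genes, 10 had no count in any mouse and 20 could be tested, each of the 20 with at least 10 counts in every mouse. Of these, 4 rose and 3 fell. Among all genes tested, 10.4% rose and 9.25% fell. As DEGs, 0 class I genes rose and 2 fell, where 4.27% of all genes rose and 3.38% fell as DEGs. The groups did not overlap for 11 of the 20, with 5 higher and 6 lower in the T + E2 group, against 40.7% of all genes tested. The median log2 fold change of the 20 was 0.06 and its median size 0.21, next to -0.002 and 0.26 over all genes. In class II, 0 of 9 tested genes were called, 0 had an unadjusted p under 0.05, and DESeq2 called 0. Without both mice of replicate number 2 the counts were 2 risen and 1 fallen in class I and 0 in class II.

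**Figure D2:**
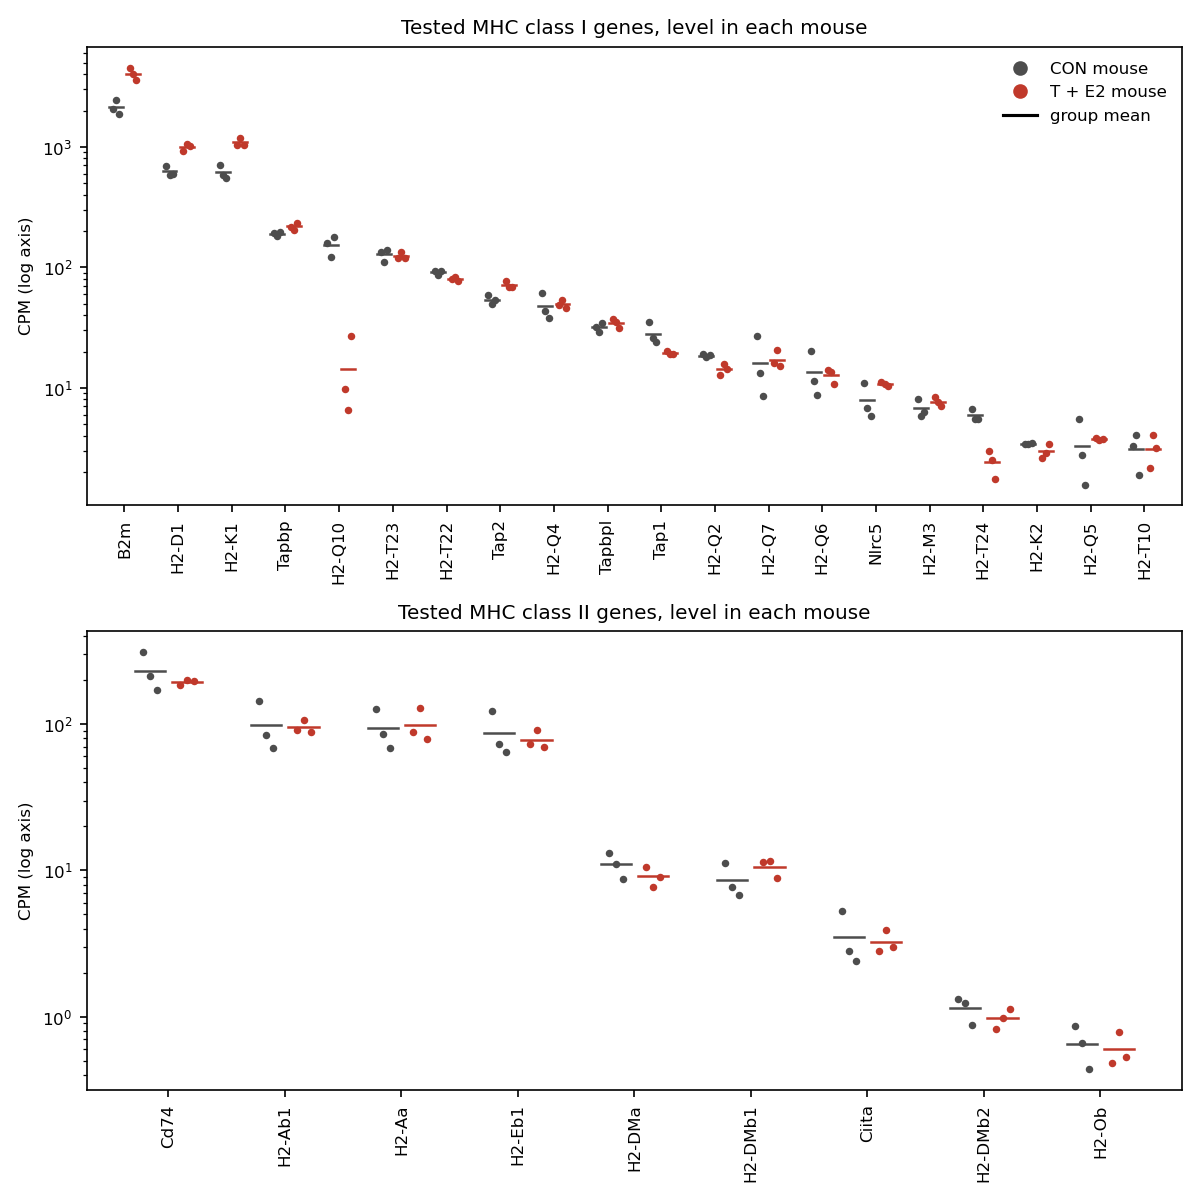
Level of each tested MHC gene in CPM (log axis) in the 3 CON mice and the 3 T + E2 mice, class I above and class II below, with a line at each group mean. B2m, H2-D1 and H2-K1 stood highest in class I and were higher in all T + E2 mice, H2-Q10 was lower in all T + E2 mice, and the groups overlapped for all 9 class II genes.

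H2-K1, at chr17:33996017-34000333, encodes the H-2Kb heavy chain of these mice. Its level was 704.1, 581.2 and 556 CPM in the CON mice and 1043, 1194 and 1032 CPM in the T + E2 mice. All T + E2 mice lay above all CON mice, and the gene rose by a log2 fold change of 0.83 ± 0.12 (SE, n = 3 per group, edgeR adjusted p = 0.00306). H2-D1, at chr17:35262730-35267499, encodes the other classical heavy chain, H-2Db. It measured 699, 584.9 and 590.5 CPM in the CON mice and 926.1, 1060 and 1019 CPM in the T + E2 mice. The groups again did not overlap, and the rise was 0.68 ± 0.11 on the log2 scale (edgeR adjusted p = 0.00459). The count of H2-K1 divided by that of H2-D1 was 1.01, 0.994 and 0.942 in CON mice against 1.13, 1.13 and 1.01 in T + E2 mice. The exact permutation test (two-sided) gave p = 0.1, the smallest possible. CON replicate 1 and T + E2 replicate 3 both round to 1.01, so the groups were barely apart. Without both mice of replicate number 2, H2-K1 and B2m rose and H2-Q10 fell, while H2-D1 (0.59, adjusted p = 0.062) and H2-T24 (-1.37, adjusted p = 0.0686) no longer passed the edgeR test.

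B2m, at chr2:122147686-122153083, encodes the light chain that every class I heavy chain shares. It was counted at 2068, 2443 and 1888 CPM in the CON mice and 4520, 4021 and 3597 CPM in the T + E2 mice, a rise of 0.92 ± 0.13 (log2, SE, n = 3 per group, edgeR adjusted p = 0.00275). Every T + E2 mouse was above every CON mouse. Per kilobase of annotated exon, the scale on which genes can be compared with each other, B2m had a mean level of 2480 CPM per kb in the CON group, above H2-D1 (242), H2-K1 (209), Cd74 (137) and Tapbp (52.4). In the T + E2 group these levels were 4700, 388, 371, 115 and 60.2 CPM per kb, so that the order of the 5 genes was the same.

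H2-Q10, at chr17:35470089-35474563, had the largest change of the 30 tested MHC genes. It measured 157.9, 121 and 177.6 CPM in the CON mice and 9.685, 6.515 and 26.89 CPM in the T + E2 mice. The groups were far apart, although the T + E2 mice differed among themselves by more than the CON mice did on a log scale. H2-Q10 fell by 3.41 on the log2 scale (SE 0.48, 95% interval -4.51 to -2.31, edgeR adjusted p = 0.00234), which made it a DEG. Its count relative to that of H2-K1 was 0.224, 0.208 and 0.319 in CON mice against 0.00928, 0.00545 and 0.0261 in T + E2 mice. Class I heavy chains resemble each other, and reads that match several genes may be shared out among them. Of the 100-base windows of its transcripts 92.0% occurred in no other gene, and 5.81% also occurred in H2-Q7, while the unique share was 99.0% for H2-K1, 96.4% for H2-D1 and 100% for B2m.

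H2-T24, a non-classical heavy chain at chr17:36005695-36020560, was the other class I DEG. The gene was at 6.689, 5.52 and 5.533 CPM in the CON mice and 2.975, 2.496 and 1.735 CPM in the T + E2 mice, with no overlap (log2 fold change -1.30 ± 0.24, edgeR adjusted p = 0.00865). It lies across A930015D03Rik on the opposite strand, but 100% of its 100-base windows occurred in no other gene. No other non-classical heavy chain was called. H2-Q2 stood nearest to the threshold, at 18.94, 17.94 and 18.55 CPM in the CON mice and 12.73, 15.71 and 14.35 CPM in the T + E2 mice (-0.37 ± 0.12, edgeR adjusted p = 0.0603), and passed it with limma on FPKM values.

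The other tested heavy chains differed by less. H2-T22 measured 92.52, 86.28 and 94 CPM in the CON group and 79.62, 82.62 and 76.28 CPM in the T + E2 group, without overlap (-0.19, adjusted p = 0.155), though only 68.5% of its windows were unique. The pseudogene H2-K2 ranged from 3.417 to 3.458 CPM in the CON group and from 2.629 to 3.403 CPM in the T + E2 group (-0.21, adjusted p = 0.495). H2-T23, the Qa-1 heavy chain that presents leader peptides to receptors of natural killer cells, ranged from 110.1 to 138.9 CPM in the CON group and 119.3 to 134.4 CPM in the T + E2 group (-0.04, 95% interval -0.30 to 0.22). H2-M3, which presents formylated peptides, stood at a log2 fold change of 0.18 (-0.24 to 0.60). For H2-Q4 the change was 0.05 (-0.34 to 0.45), for H2-Q5 0.20 (-0.73 to 1.13), for H2-Q6 -0.07 (-0.74 to 0.60), for H2-Q7 0.08 (-0.75 to 0.92) and for H2-T10 0.02 (-0.78 to 0.82). Groups overlapped for these 7 genes, and the wide intervals of H2-Q5, H2-Q6, H2-Q7 and H2-T10 reach changes of 0.60 or more in either direction.

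Summed over all 29 non-classical heavy chain genes, the level was 539.4, 425.2 and 503.8 CPM in the CON mice and 319.8, 348.8 and 329.9 CPM in the T + E2 mice, a ratio of 0.68. Without H2-Q10 the sums were 381.5, 304.3 and 326.2 CPM against 310.1, 342.3 and 303 CPM, and the groups overlapped. The classical heavy chains summed to 1403, 1166 and 1146 CPM in the CON mice and 1969, 2254 and 2051 CPM in the T + E2 mice, a ratio of 1.69. When all class I heavy chains were merged into a single feature, it rose by 0.49 ± 0.11 (log2, SE, edgeR adjusted p = 0.0207). Merging removes the effect of counts split among these genes, but not of reads left uncounted or shared with other genes. The classical heavy chains held a mean of 1239 of 1728 CPM in the CON group and 2092 of 2424 CPM in the T + E2 group. The merged rise therefore mostly reflects H2-K1 and H2-D1 and does not bear on the falls of H2-Q10 and H2-T24.

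**Figure D3:**
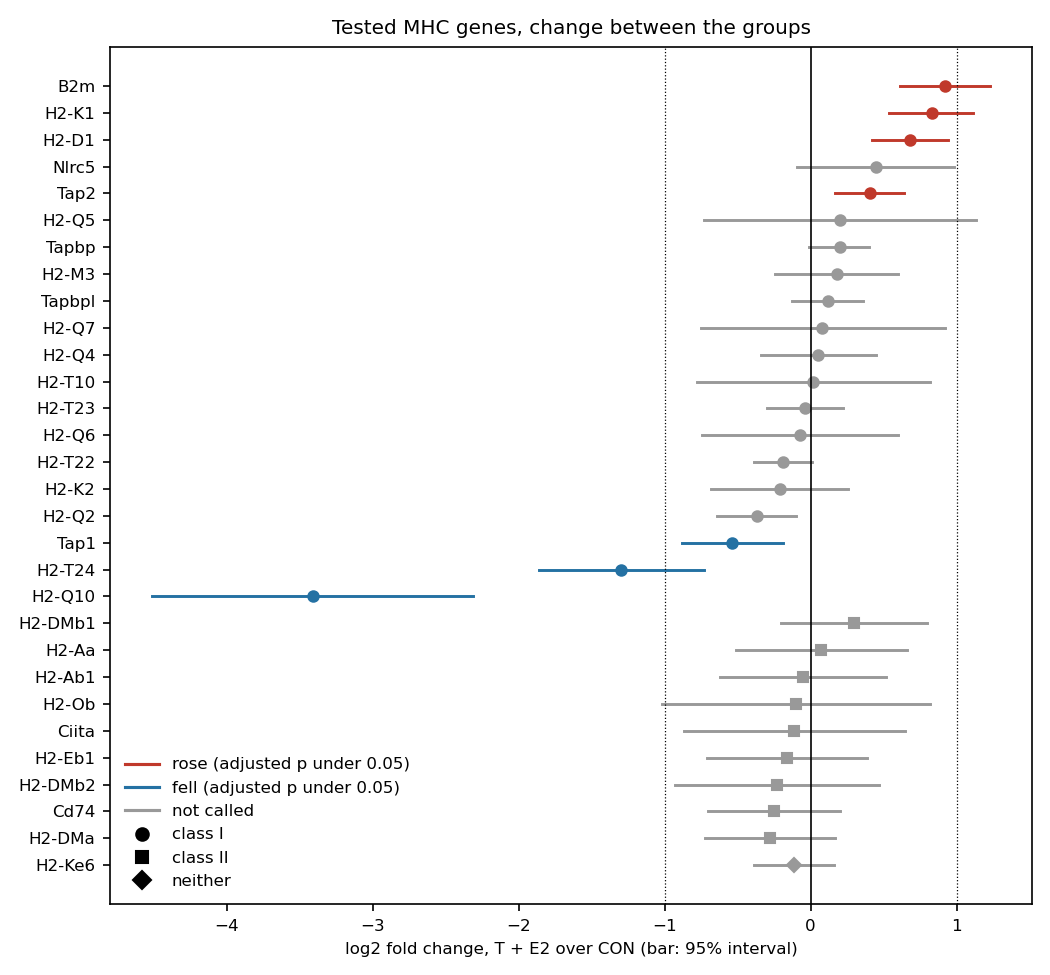
Log2 fold change of T + E2 over CON (horizontal axis, points) with its 95% interval (bars) for the 30 tested MHC genes, class I as circles, class II as squares and H2-Ke6 as a diamond, red where the gene rose, blue where it fell and grey where it was not called. Dotted lines stand at -1 and 1. B2m, H2-K1, H2-D1 and Tap2 rose, Tap1, H2-T24 and H2-Q10 fell, and every class II interval spans 0.

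The subunits of the peptide transporter moved in opposite directions. Tap1, at chr17:34187553-34197225, was at 34.83, 25.89 and 23.77 CPM in the CON mice and 20.13, 18.94 and 19.15 CPM in the T + E2 mice (log2 fold change -0.54 ± 0.15, edgeR adjusted p = 0.0409). Tap2, at chr17:34203527-34216321, measured 58.74, 49.55 and 53.38 CPM in the CON mice and 77.41, 68.56 and 68.54 CPM in the T + E2 mice (0.41 ± 0.10, edgeR adjusted p = 0.0267). TAP is a heterodimer that needs both subunits to carry peptides. Within each mouse, Tap2 had 1.69, 1.91 and 2.25 counts per count of Tap1 in the CON group and 3.85, 3.62 and 3.58 in the T + E2 group. Since Tap1 was lower and Tap2 higher in every T + E2 mouse, these ratios could not overlap. The exact permutation test (two-sided) then had to give p = 0.1, the smallest it can give with 3 against 3. It therefore adds nothing to the calls of the single genes. Neither call was firm: Tap1 lost it in 5 and Tap2 in 4 of the 6 fits that left out a single mouse, with adjusted p up to 0.114 and 0.0985, although the direction held in each. Tap1 also overlaps Psmb9 on the opposite strand and shared 1.93% of its windows with it, and whether the counting used strand is not given in the sources used here.

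Tapbp encodes tapasin, which bridges TAP and the heavy chain, and Tapbpl the related editor TAPBPR. Tapbp measured 193.4, 181.1 and 196 CPM in the CON mice and 214.8, 205.6 and 234.6 CPM in the T + E2 mice, all higher but not called (0.20 ± 0.09, edgeR adjusted p = 0.156). Tapbpl overlapped between the groups, at 29.18 to 34.58 CPM and 31.5 to 37.22 CPM (0.12, 95% interval -0.13 to 0.36). Nlrc5 was at 10.99, 6.834 and 5.847 CPM in the CON mice and 11.14, 10.78 and 10.34 CPM in the T + E2 mice (0.45 ± 0.23, edgeR adjusted p = 0.214). CON replicate 1 alone brought the groups together here, and without it the change was 0.76 with an edgeR adjusted p of 0.022.

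The class II chains were near the same level in both groups. H2-Ab1, at chr17:34263209-34269418, encodes the beta chain of I-Ab, the class II molecule of these mice, and measured 143, 83.92 and 68.59 CPM in the CON mice and 91.52, 106.4 and 87.56 CPM in the T + E2 mice (log2 fold change -0.05, 95% interval -0.62 to 0.52, edgeR adjusted p = 0.908). H2-Aa, at chr17:34282744-34287827, encodes the alpha chain and measured 126.8, 84.97 and 68.59 CPM against 87.65, 128.7 and 78.81 CPM (0.07, -0.51 to 0.66, edgeR adjusted p = 0.863). H2-Eb1, the beta chain of I-E, was transcribed at 123.7, 72.61 and 64.38 CPM in the CON mice and 72.64, 90.54 and 69.87 CPM in the T + E2 mice (-0.16, -0.71 to 0.39, edgeR adjusted p = 0.672). Its alpha chain partner is a pseudogene in the C57BL/6 strain, and H2-Ea-ps had no count in any mouse. In all 3 chains the CON mice spanned the T + E2 values or nearly did, and the intervals reached from -0.71 to 0.66.

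Genes that load class II molecules gave the same picture. Cd74, the invariant chain that guards the groove until a peptide is loaded, measured 309.6, 212.8 and 170.1 CPM in the CON mice and 185.7, 199.3 and 196.7 CPM in the T + E2 mice (-0.25, 95% interval -0.70 to 0.20, edgeR adjusted p = 0.401). The peptide exchange chains H2-DMa (-0.28, adjusted p = 0.346), H2-DMb1 (0.30, adjusted p = 0.368) and H2-DMb2 (-0.23, adjusted p = 0.637) differed in sign and overlapped between the groups. H2-Ob, a chain of the DM inhibitor DO, was at 0.4401 to 0.8609 CPM in the CON mice and 0.4842 to 0.7915 CPM in the T + E2 mice. Ciita was at 5.298, 2.826 and 2.389 CPM in the CON mice and 2.836, 3.897 and 3.003 CPM in the T + E2 mice (-0.11, -0.87 to 0.65, edgeR adjusted p = 0.85). Over all 14 class II genes the sum was 736, 478.5 and 391.4 CPM in the CON mice and 463.6, 550.2 and 455.5 CPM in the T + E2 mice, a ratio of 0.915. On the log2 scale this was -0.13, and leaving out CON replicate 1 turned it to 0.17. Without that mouse the log2 fold changes of H2-Ab1 (0.32), H2-Eb1 (0.18), Cd74 (0.02), H2-Ob (0.15) and Ciita (0.32) also turned positive, none of them called.

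H2-Oa, the partner of H2-Ob, lay below the filter on low counts, with 9, 9 and 8 counts in CON mice against 1, 3 and 0 in T + E2 mice. In a fit without that filter its adjusted p was 0.0516, and limma on FPKM values called it lower in the T + E2 group. The other class II genes that were not tested had at most 4 counts in a mouse. Among class I genes below the filter, H2-M9 had 2, 3 and 4 counts in CON mice against 1, 22 and 11 in T + E2 mice (adjusted p = 0.188 without the filter), and the remaining 6 had at most 3 counts in any mouse. H2-Ke6 ranged from 34.04 to 42.44 CPM in the CON group and from 32.76 to 39.29 CPM in the T + E2 group (-0.11, edgeR adjusted p = 0.538), with only 38.4% of its windows unique.

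Within the CON group the class II genes varied together. All 9 tested genes stood in the order replicate 1, then 2, then 3 from high to low, as did 7 of 20 class I genes and 20.2% of all genes tested. Ptprc, the pan-leukocyte antigen CD45, had the same order in the CON mice, at 19.6, 11.17 and 8.676 CPM, and was at 15.08, 24.42 and 15.82 CPM in the T + E2 mice (0.49 ± 0.31, edgeR adjusted p = 0.301). The counts come from the same libraries, so these orders are a description of the mice. Of the class II genes, H2-Ab1 and Cd74 were read against Ptprc. H2-Ab1 had 7.3, 7.51 and 7.91 counts per count of Ptprc in CON mice against 6.07, 4.36 and 5.54 in T + E2 mice, and Cd74 had 15.8, 19 and 19.6 against 12.3, 8.16 and 12.4. Both ratios were lower in every T + E2 mouse (exact permutation test, two-sided, p = 0.1 for each, the smallest possible). For comparison, the groups did not overlap for 40.7% of all single genes tested. By the same permutation test, B2m per Ptprc gave p = 0.4, B2m per H2-K1 0.6, H2-Ab1 per Cd74 0.2 and H2-Aa per H2-Ab1 0.8. H2-Eb1 per H2-Ab1 gave 0.1. H2-Q10 per H2-K1 had to give 0.1, since H2-Q10 was lower and H2-K1 higher in every T + E2 mouse. That value adds nothing to the calls of the single genes.

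**Figure D4:**
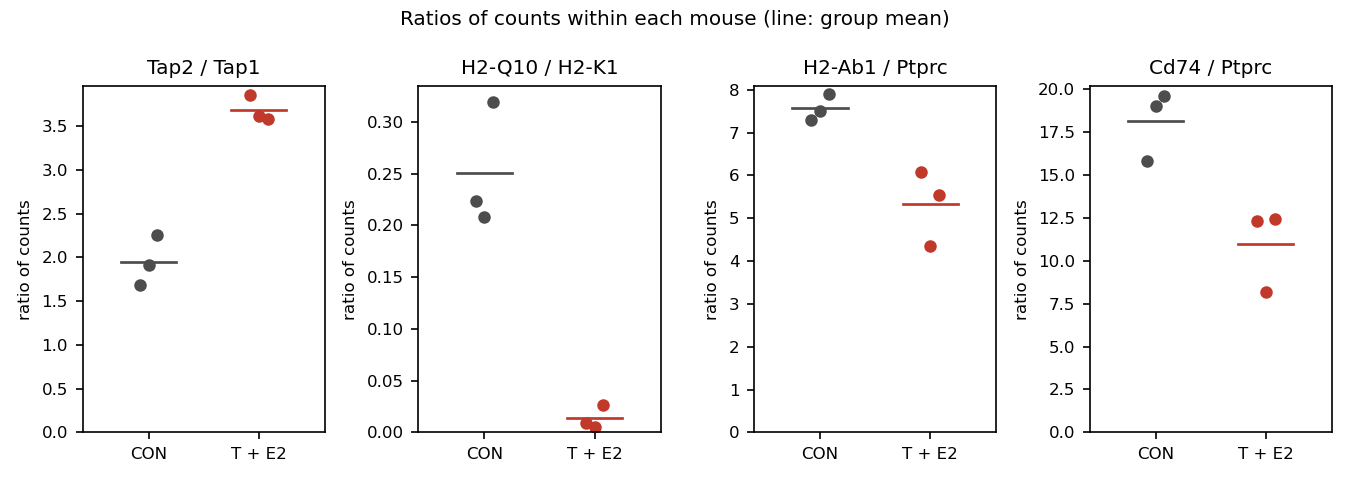
Ratio of counts between pairs of genes (vertical axis, no unit) in each CON and T + E2 mouse, with a line at the group mean. Tap2 per Tap1 was higher in all T + E2 mice (3.58 to 3.85 against 1.69 to 2.25), and H2-Q10 per H2-K1, H2-Ab1 per Ptprc and Cd74 per Ptprc were lower in all of them.

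Among markers of the leukocytes that make class II, called genes went in both directions. Of all genes tested, 10.4% rose and 9.25% fell, and a single call in a short list is not a result about that list. Of 8 macrophage markers 5 rose, led by the mannose receptor Mrc1 (47.35, 36.47 and 31 CPM against 63.57, 114.2 and 74.68 CPM, log2 fold change 1.14, edgeR adjusted p = 0.0135), with C1qb (0.77), Cd14 (0.64), C1qa (0.63) and C1qc (0.58). Their list summed to 195.5 to 258.4 CPM in the CON mice and 290.6 to 423.7 CPM in the T + E2 mice. Of 7 tested dendritic cell markers, Batf3, a transcription factor of cross-presenting dendritic cells, fell (3.377, 2.431 and 3.835 CPM against 1.038, 0.7307 and 0.8008 CPM, -1.90, edgeR adjusted p = 0.00345), and none rose. That list summed to 16.1 to 19.01 CPM in the CON mice and 10.03 to 14.67 CPM in the T + E2 mice. Of 3 tested B cell markers Cd79b rose (2.11, edgeR adjusted p = 0.00565), while edgeR called 0 of 6 tested markers of T and NK cells and 0 of 3 of plasma cells. In the former 0 had an unadjusted p under 0.05 and DESeq2 called 0, and in the latter 2 had and DESeq2 called 1. No marker of these lists was at 0 in all mice. In the epithelium, Epcam rose (1.18) and Krt18 (-0.54) fell with Pbsn, the basal marker Trp63 rose (0.57), and in the stroma Acta2 fell (-0.50). Without both mice of replicate number 2, C1qb was the 1 macrophage marker still called, Batf3, Epcam and Pbsn were called as before, and 0 B cell, basal and stromal markers were. The part of cell composition in the class I and class II levels was not tested.

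**Figure D5:**
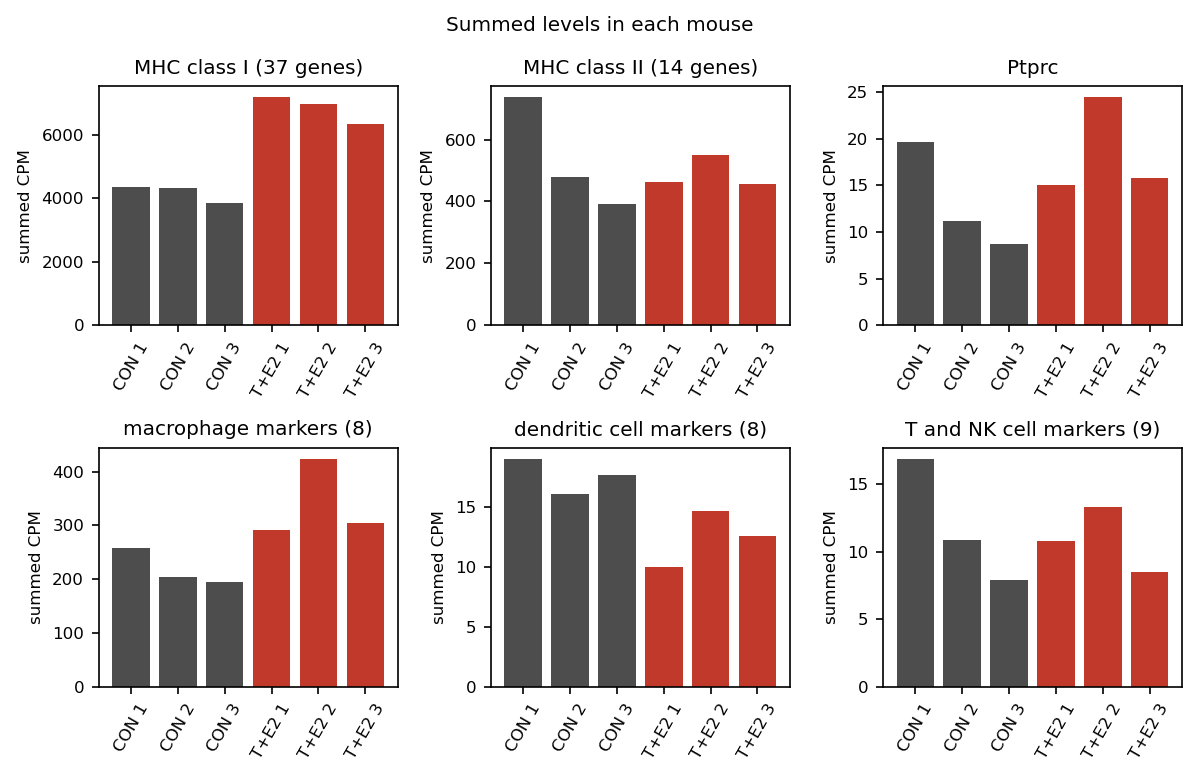
Summed CPM (vertical axes, each from 0) in each mouse for the MHC class I and class II genes, Ptprc and the marker lists of macrophages, dendritic cells, and T and NK cells, CON mice in grey and T + E2 mice in red. Class I sums were 3852 to 4340 CPM in CON and 6342 to 7170 CPM in T + E2 mice, while the class II sum was highest in CON replicate 1.

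Among genes that supply and fold class I, the chaperones of the endoplasmic reticulum rose and the immunoproteasome did not. Of 10 tested genes 4 rose and 1 fell, against 10.4% and 9.25% of all genes tested, so the share that fell was near that of all genes. Those that rose were Calr (calreticulin, 1.03), Hspa5 (BiP, 0.96), Pdia3 (ERp57, 0.64) and Canx (calnexin, 0.61), all of which also fold many other proteins. Calr measured 1418, 2056 and 2212 CPM in the CON mice and 4303, 3876 and 3459 CPM in the T + E2 mice (edgeR adjusted p = 0.00542). The immunoproteasome subunit Psmb10 fell, from 24.17, 22.08 and 21.88 CPM to 17.78, 16.74 and 17.55 CPM (-0.39, edgeR adjusted p = 0.0304), though DESeq2 called 0 of the 10 genes lower. The other catalytic subunits were not called, with Psmb8 at 0.09 (adjusted p = 0.559) and Psmb9 at -0.36 (adjusted p = 0.254). EdgeR called 0 of the 10 without both mice of replicate number 2.

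Of the enzymes that prepare or degrade class II cargo, 6 of 8 tested rose and 0 fell, against 10.4% and 9.25% of all genes tested. Ctsb (cathepsin B) rose most, from 316.6, 323.1 and 307.8 CPM to 1089, 1115 and 915.6 CPM (1.72 ± 0.11, edgeR adjusted p = 5.25e-05), without overlap. Lgmn (legumain, 1.08), Ctsd (0.65), Ctsh (0.61) and Ctsl (0.43) followed, and the sixth was Sppl2a, the protease that removes the last fragment of Cd74 (0.38). Ctsb, Lgmn and Ctsh were the 3 that rose without both mice of replicate number 2. These proteases are not particular to class II and are made by many cell types.

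Genes that control MHC transcription came next. Of 11 tested transcription factors of MHC genes, edgeR and DESeq2 called 0 risen and 1 fallen, against 10.4% and 9.25% of all genes with edgeR, and 4 had an unadjusted p under 0.05. The fallen gene was Irf2 (98.08, 116.2 and 97.33 CPM against 69.04, 64.3 and 75.68 CPM, -0.58, edgeR adjusted p = 0.00921). Rfx5, a subunit of the factor that binds the X box, was level at -0.04. Irf1 (31.32, 32.86 and 28.48 CPM against 25.25, 25.57 and 17.95 CPM, -0.43, edgeR adjusted p = 0.0783) was lower in every T + E2 mouse without passing the test. Interferon gamma is the main inducer of both classes, and Ifng itself was at 0 to 0.1324 CPM, below the detection limit in every mouse. In its signalling path the receptor chains Ifngr1 (-0.69, edgeR adjusted p = 0.00208) and Ifngr2 (-0.45) fell and the kinases Jak2 (0.89, edgeR adjusted p = 0.00149) and Jak1 (0.41) rose. Ifngr1 fell and Jak2 rose also without both mice of replicate number 2, while Irf2, Ifngr2 and Jak1 were then not called. Of 11 tested genes that interferon gamma induces, such as Gbp2 and Cxcl9, edgeR and DESeq2 called 0, and 0 had an unadjusted p under 0.05.

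Class I-like molecules encoded outside the H2 region, and the partners of MHC molecules, were followed last. Azgp1, a secreted class I-like protein, rose from 798.3, 826.3 and 870.4 CPM to 1544, 1587 and 1412 CPM (0.86 ± 0.10, edgeR adjusted p = 0.000805), and Hfe, which pairs with beta-2 microglobulin and takes part in iron uptake, rose by 0.84 (edgeR adjusted p = 0.00257). The other 3 of this list were not called. Pirb, an inhibitory receptor for class I, rose (0.81, edgeR adjusted p = 0.00646) as the only called gene of 5 tested MHC receptors, and Icosl rose (0.82, edgeR adjusted p = 0.0148) as the only called gene of 4 for co-stimulation. Over all lists, 25 of 110 tested genes outside the 52 rose and 8 fell, against 10.4% and 9.25% of all genes tested. Without both mice of replicate number 2, 13 of them were called, among them Azgp1, Hfe and Icosl but not Pirb. The lists join unlike genes and were chosen with earlier results of these data known, so these shares are a description only.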

How the data were processed

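RNA from the prostates of 3 CON and 3 T + E2 mice was sequenced by the authors with paired-end TruSeq libraries. Per the labels, TopHat, Bowtie2 and HTSeq were used, without versions. The genome build and the strand setting are not given in the sources used here. The authors deposited whole-number counts per gene without normalization, and FPKM values computed from them. Positions are those of the deposited table. All 52 genes overlap their GENCODE M21 entry on GRCm38, and 36 have the same coordinates. Groups and replicate numbers came from the sample labels.

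Counts were tested in R 4.3.3 with edgeR 4.0.16 (TMM scaling, filterByExpr with minimum count 10 and minimum total 15, quasi-likelihood F test, Benjamini-Hochberg adjustment over 15580 genes). Each standard error was taken as the log2 fold change over the square root of F, and 95% intervals use the fit's degrees of freedom. The biological coefficient of variation was 18%. The procedure was tested on simulated data. The deposited FPKM imply gene lengths within 10% of the merged exon length for 20.2% of 11898 genes, so levels of different genes were compared as CPM per kilobase of merged M21 exons. The alternatives were DESeq2 1.42.0, median-of-ratios and total-count scaling, no filter, limma 3.58.1 on log2(FPKM + 1) and log2(FPKM + 0.1) where FPKM reached 0.1 in 3 mice or more, a replicate block, merged heavy chains, and each mouse left out. The fit without both mice of replicate number 2 was chosen after seeing the data. Reads are not independent molecules, so detection limits cover counting error only.

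The genes and lists were chosen with earlier results of these data known. Every tested gene of the 52 is named. Of the other lists, all genes were counted and up to 5 called genes with the largest change were named, with Ptprc, Rfx5, Irf1, Ifng, Psmb8, Psmb9 and Psmb10. A gene that this rule also names is not reported here. Gbp2 and Cxcl9 were named as examples outside this rule, and so was Sppl2a. Figures were drawn with matplotlib.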

Additional observations from a re-analysis of the deposited data

How the results depend on the processing

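Only MHC genes tested in the main fit were compared singly over the settings. They kept their direction and their side of the threshold in 390 cases, passed it newly in 3, lost it in 16 and changed sign in 26. Every change of sign was in a gene that was called neither before nor after. Leaving out a single mouse gave log2 fold changes of -0.08 to 0.28 for H2-Q4, -0.14 to 0.79 for H2-Q5, -0.31 to 0.35 for H2-Q6, -0.22 to 0.65 for H2-Q7, -0.24 to 0.27 for H2-T10, -0.13 to 0.03 for H2-T23, -0.17 to 0.36 for H2-Aa, -0.25 to 0.32 for H2-Ab1, -0.34 to 0.18 for H2-Eb1, -0.43 to 0.02 for Cd74, -0.35 to 0.15 for H2-Ob and -0.32 to 0.32 for Ciita. The sign also changed without both mice of replicate number 2 for H2-Q4 (-0.07), H2-Q7 (-0.19) and H2-Aa (-0.23), with total-count scaling (-0.02) and limma on log2(FPKM + 1) (-0.01) for H2-T10, and with the replicate block for H2-Ab1 (0.02). The cause was not tested. Those that newly passed were H2-Q2 with limma on FPKM and Nlrc5 without CON replicate 1. Genes filtered out of the main fit, such as H2-M9, are not among these cases but can enter the class I counts of other fits. Without T + E2 replicate 1, and likewise without T + E2 replicate 3, 4 class I genes rose. Calls of H2-M9 in such fits are not given here. The losses were those of Tap1, Tap2, H2-D1 and H2-T24. Class II had 1 called gene with limma at either pseudocount, H2-Oa (adjusted p = 0.0179 and 0.0208), which edgeR had filtered out. Merging the heavy chains left 3 class I calls because the heavy chains were no longer tested singly. By the DEG thresholds 1191 genes and 2 class I genes were called. Without both mice of replicate number 2, 1354 genes, 3 class I genes and 13 listed genes outside the 52 were called, with fewer samples. Leaving out a single mouse gave 1929 to 2741 called genes. The summed class II log2 ratio ran from -0.31 to 0.17 with a mouse left out. The summed class I log2 ratio was 0.71 from CPM and 0.82 from FPKM, and the cause was not tested. Same-numbered mice had correlated deviations of -0.052, 0.028 and 0.046, next to -0.182 to 0.137 for differently numbered mice. With 3 mice per group, this check cannot show whether the numbers pair them. With a replicate block 2174 genes were called, with 6 class I genes, Tap1 being lost (adjusted p = 0.0546), and 0 class II genes. With 3 mice per group the 95% intervals of class II genes ran from -1.02 to 0.82, and changes within them were not detectable.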
